A study of Komagataella phaffii with 13 samples.

Results

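A set of 98 genes of Pichia pastoris (Komagataella phaffii) GS115 was higher 2 h into the mixed glycerol-methanol feed than in either phase before methanol, and was still higher during 120 h of feeding with methanol alone. The genes were selected on measured values, out of 5032 annotated genes with a mean of at least 1 FPKM (fragments scaled to gene length and to mapped fragments in the library) over 13 RNA-Seq libraries. On the scale of log2(FPKM + 1), the mixed feed and the median of the methanol libraries each had to lie at least 1 above both earlier phases, and that median had to lie less than 1 below the mixed feed. A difference of 1 on this scale is close to 2-fold, and because of the added 1 a gene with low FPKM needs a larger fold to reach it. Of 118 annotated genes with such values, 19 that stand in the study's own gene tables were left out, and 1 more identifier was left out by name. The 98 genes are known here only by locus tag, because the gene table at hand pairs the tags with no product, so no role is given for any of them.

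The libraries were the yeast cell culture phase at 10 h (B_10), the glycerol feed phase at 3 h (G_3), the glycerol-methanol phase at 2 h (GM_2) and methanol induction sampled every 12 h from 12 to 120 h (M_12 to M_120). All were taken from 1 Mut+, his4 strain that carries an Aspergillus niger phytase gene behind the methanol-inducible AOX1 promoter with a yeast alpha-mating factor secretion signal. The control phases therefore carry this construct too. Each phase before methanol has 1 library and the methanol libraries are serial samples with no replicate, so the differences between phases have no replicate check and are given without a test. The label of B_10 names a bench-scale batch, whereas the methods place the yeast cell culture in the large fermenter, so fermentation scale and phase cannot be told apart in B_10. Strain numbers in the labels count up along the methanol hours and the extraction text refers to animal tissue, but the methods name GS115 throughout and each sample was treated as that strain.

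Pichia pastoris oxidizes methanol to formaldehyde and hydrogen peroxide inside peroxisomes, by alcohol oxidase encoded by AOX1 and AOX2. Formaldehyde is either fixed to a sugar phosphate by dihydroxyacetone synthase (DAS1, DAS2) or oxidized to carbon dioxide, with formate dehydrogenase (FDH) as the last step. Glycerol in excess keeps these genes low, and methanol induces them together with many peroxisomal proteins.

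The feed labels matched the genes that define each feed. AOX1 was measured at 11.3 FPKM in B_10, 38.2 in G_3 and 928 in GM_2, with a median of 23727 in methanol. GUT1, the glycerol kinase that starts glycerol use, was measured at 1572, 1202 and 2395 FPKM in B_10, G_3 and GM_2, with a median of 67.0 in methanol. The libraries held 23451718 to 42619646 fragments in annotated genes, recovered from the step between low FPKM values, and of the low values checked 86.4% to 98.0% came within 0.01 of a whole fragment. Over the 98 genes the median was 1570 fragments in B_10. Only 5 of the genes had fewer than 100 fragments in B_10 or G_3, the lowest being PAS_c121_0016 with about 12.8 in B_10, so counting error is small against a 2-fold difference for all but these.

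The share of the transcriptome in the set and its median level follow from the selection and are given as a description. The 98 genes held 0.883% of all FPKM in B_10, 1.08% in G_3 and 3.58% in GM_2, and between 4.59% in M_60 and 5.86% in M_96 of the methanol libraries. Their median FPKM was 24.1 in B_10, 34.8 in G_3 and 104 in GM_2, while the median over genes of the mean in methanol was 175. The corresponding medians of the 5032 tested genes were 50.7, 52.3, 54.9 and 55.7 FPKM. The selection fixes the direction of these shifts, and nothing is read from them. The levels in methanol covered a wide range, from a mean of 7.68 FPKM for PAS_chr4_0556 to 9047 for PAS_chr2-1_0472. A mean of at least 1000 FPKM was reached by 13 genes, 37 genes stayed under 100 and 3 under 10. The 10 highest genes held 58.6% to 62.4% of the set's FPKM in methanol.

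The sizes of the differences that chose the genes are given as a description. By the same threshold, 5.37% of all tested genes were above B_10 and G_3 in GM_2, and 8.86% were above them in the methanol median, and nothing is read from the comparison because these values made the set. The difference of GM_2 from the higher of B_10 and G_3 ran from 1.00 to 5.04 with a median of 1.42, and that of the methanol median from 1.00 to 7.11 with a median of 1.83. Over all tested genes these medians were -0.09 and -0.13. In GM_2 the difference was under 1.5 in 59 genes and 2 or more in 17, so most of the set lay near the threshold in the mixed feed. In methanol it was 2 or more in 46 genes and 4 or more in 9.

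The genes differed in what followed the mixed feed. Both values compared here were used by the rule, which also cut off genes 1 or more below GM_2. The split is therefore given as a description, without a share over all tested genes, and nothing is read from its counts. The methanol median lay within 0.5 of GM_2 in 52 genes, 0.5 to 1 above it in 17, 1 to 2 above it in 14 and 2 or more above it in 9, and it lay more than 0.5 below GM_2 in 6. By this measure the methanol median of those 52 genes was close to the level 2 h into the mixed feed, when glycerol was still supplied. Single libraries could lie further from GM_2, as M_12 did in PAS_chr2-1_0092, at 1.64 below it.

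**Figure D1:**
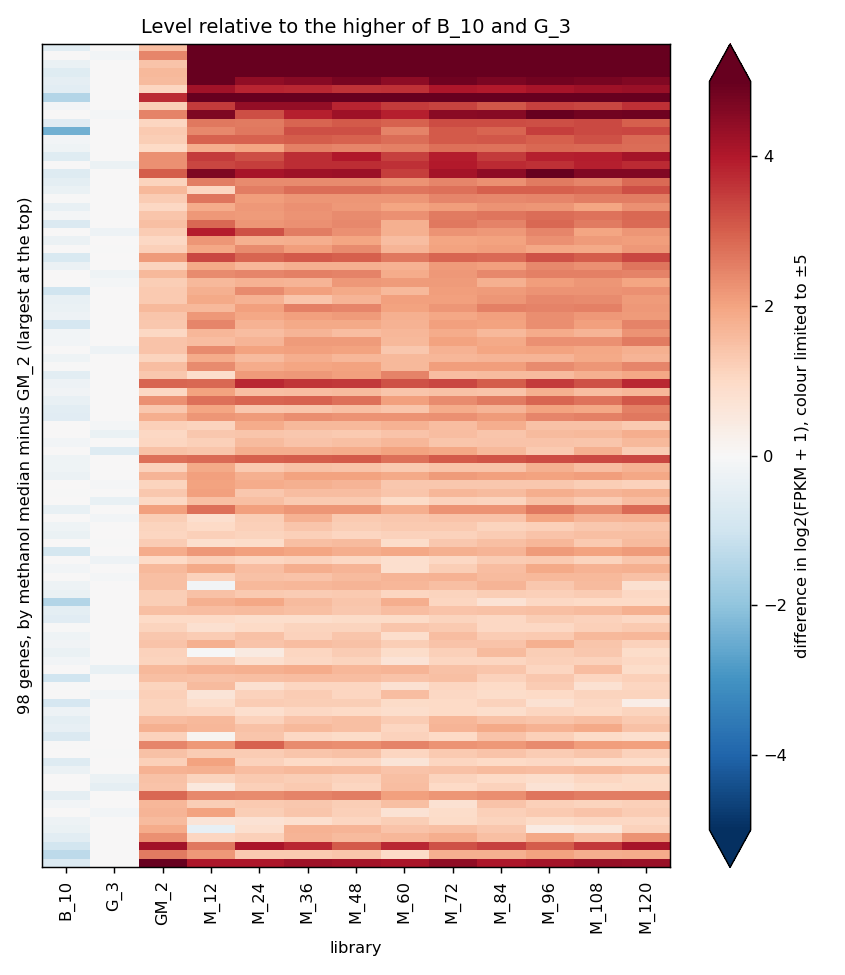
Difference in log2(FPKM + 1) of each of the 98 genes (lines of the map) from the higher of B_10 and G_3, in the 13 libraries (columns), with genes ordered by the methanol median minus GM_2. The genes at the top lie up to 4.87 higher in the methanol median than in GM_2, and 52 of the 98 have that median within 0.5 of GM_2. The level of 1 above both earlier phases is missed by 14 genes in M_60 and 13 in M_12. M_12 is also the highest methanol library of 20 genes.

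The 9 genes whose methanol median lay 2 or more above GM_2 differed in their level before methanol, and 5 of them are given first. PAS_chr3_1071 had 23.7, 35.0 and 103 FPKM in B_10, G_3 and GM_2, and ran in methanol from 2662 in M_60 through a median of 3036 to 5996 in M_12. Its methanol median was 4.87 above GM_2 on the log2 scale, the largest such difference in the set, and M_12 alone was well above the later libraries. PAS_chr1-1_0037 had 6.96, 6.17 and 42.3 FPKM in B_10, G_3 and GM_2, and 865 to 1309 in methanol with a median of 1101. Its methanol median lay 7.11 above the earlier phases, the largest difference among the 98 genes. PAS_chr3_0374 had 12.9, 16.4 and 46.1 FPKM before methanol alone and 637 to 1022 in methanol, with a median of 829.9. PAS_chr1-4_0699 had 14.9, 23.2 and 73.4 FPKM before methanol alone and 884 to 1243 in methanol, with a median of 1079. PAS_chr4_0602 had 12.4, 17.5 and 53.7 FPKM before methanol alone and 394 to 585 in methanol, with a median of 491. In these 5 genes every methanol library lay far above GM_2, and GM_2 itself was under 110 FPKM.

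The other 4 genes of this kind were higher in the mixed feed or more variable in methanol. PAS_chr2-1_0748 had 6.004, 18.3 and 257 FPKM in B_10, G_3 and GM_2 and 917 to 1765 in methanol, with a median of 1295. Each of its phases lay above the one before, the glycerol feed above the yeast cell culture included. PAS_chr1-1_0417 had 78.9, 114 and 239.8 FPKM before methanol alone and 1396 to 2283 in methanol, with a median of 1826. PAS_chr4_0589 had 244, 228 and 1368 FPKM before methanol alone and 2265 in M_24 to 7678 in M_96, with a median of 5694. M_12 of this gene, at 6261 FPKM, was close to the late libraries, and M_24 was the lowest. PAS_chr4_0579 had 27.7, 31.0 and 75.01 FPKM before methanol alone, and 275 in M_84 to 675 in M_24, with a median of 362.

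The 6 genes whose methanol median lay more than 0.5 below GM_2 had their highest FPKM of all 13 libraries in the mixed feed. PAS_chr1-4_0516 had the largest difference of the set in GM_2, with 36.2, 58.7 and 1963 FPKM in B_10, G_3 and GM_2 and 977 to 1289 in methanol around a median of 1062. Its difference was 5.04 in GM_2 and 4.15 in methanol, and the 10 methanol libraries spanned only 0.40. PAS_chr3_0505 followed with 30.9, 59.7 and 1122 FPKM before methanol alone, and 376 in M_12 to 1058 in M_120 with a median of 681. This gene was less even, with M_24 at 1031 FPKM near M_120 and M_48 at 504.05 FPKM. PAS_chr4_0470 had 22.6, 57.0 and 349 FPKM before methanol alone and 111 to 259 in methanol, with a median of 196. The remaining 3 were PAS_chr1-1_0209, PAS_chr2-1_0306 and PAS_chr3_1242, with medians 0.67, 0.61 and 0.56 below GM_2. Beyond the limit of 1, another 9 annotated genes had both differences but a methanol median at least 1 below GM_2, and they are not part of the set.

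Among the 10 genes with the highest mean in methanol, several were already abundant before it. PAS_chr2-1_0472 was the highest of the set in each library, with 1997, 2178 and 5885 FPKM in B_10, G_3 and GM_2 and 6289 in M_12 to 13097 in M_120 around a median of 9209. PAS_chr4_0815 had 1280.4, 1488 and 3189 FPKM before methanol alone and 2974 to 3904 in methanol, with a median of 3576. PAS_chr4_0974 had 585, 597 and 1283 FPKM before methanol alone and 1046 to 1565 in methanol, with a median of 1289. These last 2 genes were about 2-fold higher in GM_2, with methanol medians 0.16 and 0.01 above GM_2 and ranges of 0.39 and 0.58 over the methanol libraries, and each fell short of the threshold in M_12 only. PAS_chr3_0837 had 1135, 1051 and 2593 FPKM before methanol alone and 2469 to 4121 in methanol, with a median of 3386. PAS_chr3_0408 and PAS_chr2-1_0853 had far larger differences in GM_2, 2.92 and 2.85. PAS_chr3_0408 had 196, 237 and 1799 FPKM before methanol alone and 1745 to 3239 in methanol, and PAS_chr2-1_0853 had 264, 364 and 2633 before it and 1496 to 2308 in methanol.

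**Figure D2:**
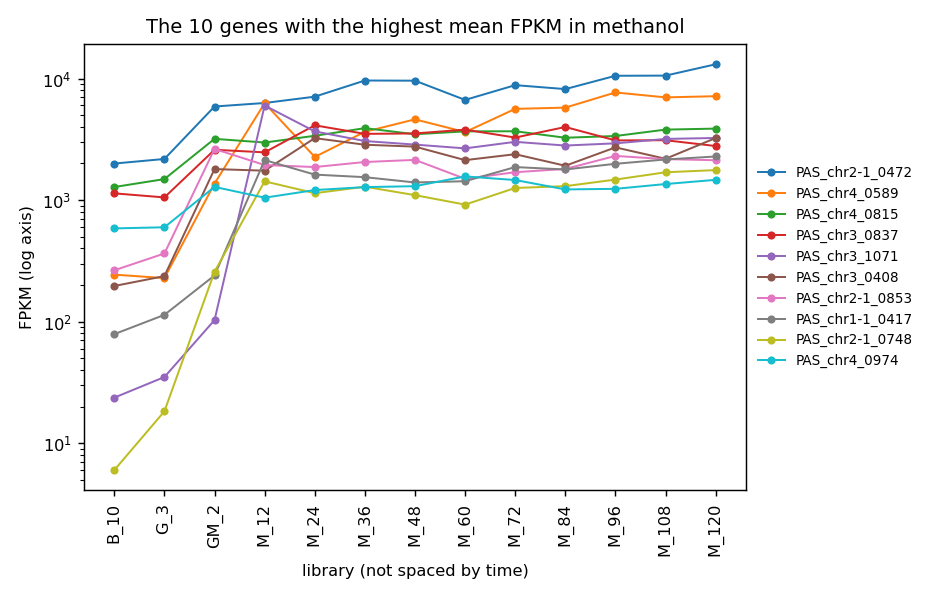
FPKM on a log axis of the 10 genes with the highest mean in methanol, 1 line per gene over the 13 libraries. PAS_chr2-1_0472 lies on top between 1997 and 13097 FPKM, PAS_chr3_1071 lies at 103 FPKM in GM_2 and 5996 in M_12, and PAS_chr4_0815 and PAS_chr4_0974 have methanol medians within 0.16 of GM_2.

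The 10 largest differences in GM_2 included 2 genes with intermediate courses. PAS_chr3_0023 had 7.73, 12.8 and 112 FPKM in B_10, G_3 and GM_2 and 151 in M_60 to 450.3 in M_96, with a median of 283. PAS_chr1-3_0013 had 63.6, 73.4 and 497 FPKM before methanol alone and 503 to 757 in methanol, with a median of 619.5. The first was more than 2-fold higher again in the methanol median, while the second lay 0.32 above GM_2.

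The genes next to the thresholds differed little from their neighbours outside. Just inside the limit for GM_2 stood PAS_chr2-2_0282 at 1.002, PAS_chr3_0018 at 1.01 and PAS_chr3_0105 at 1.02, and just outside it PAS_chr2-2_0005 at 0.996, PAS_chr4_0785 at 0.987 and PAS_chr2-2_0063 at 0.983. For the methanol median the genes just inside were PAS_chr3_1242, PAS_chr3_0422 and PAS_chr2-2_0282, at 1.002, 1.01 and 1.02, and those just outside were PAS_chr4_0664, PAS_chr3_0735 and PAS_chr1-1_0027, at 0.994, 0.991 and 0.990. For the change after GM_2 the gap was wider, with PAS_chr1-4_0516 at -0.89 as the last gene inside and PAS_chr1-1_0490 at -1.04 as the first outside. With a threshold of 1.5 for both differences the set would hold 34 genes, with 0.5 it would hold 334, and against B_10 alone 239.

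B_10 and G_3 were both used by the rule, which took the higher of them as its base, and their difference is given as a description. G_3 was above B_10 in 75 of the 98 genes (76.5%), against 50.02% of the tested genes, and the median of G_3 minus B_10 was 0.26, against 0.0003 in the tested genes. A G_3 level at least 1 above B_10 was seen in 4 of the 98 genes and in 2.42% of the tested genes, and a level at least 1 below it in 0 of the 98 and in 0.755% of the tested genes. The rule used both phases, and B_10 alone as the base would admit 239 genes and G_3 alone 119, so the part of the selection in these shares was not tested and nothing is read from them. PAS_chr1-1_0418 showed the largest such difference, 2.42, with 8.37 FPKM in B_10, 49.1 in G_3 and 123 in GM_2, and 262 to 548 in methanol. PAS_chr4_0540 had 33.0, 92.9 and 218 FPKM in B_10, G_3 and GM_2, and PAS_chr4_0470 and PAS_chr2-1_0748 were the others. In all 4 the glycerol feed lay above the yeast cell culture and the mixed feed above both.

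The step between the mixed feed and the first methanol library went in both directions. M_12 was at least 1 above GM_2 in 22 of the 98 genes and in 8.45% of the tested genes, and at least 1 below it in 6 of the 98 and in 12.2% of the tested genes. Both counts are shaped by the selection, since M_12 is part of the methanol median, which had to be high and less than 1 below GM_2, and nothing is read from them. PAS_chr2-1_0306 showed the largest difference of M_12 below GM_2, with 4.71, 6.22 and 25.1 FPKM in B_10, G_3 and GM_2 and then 4.50 in M_12, before 11.9 in M_24 and 23.0 in M_36. It had only about 43 fragments in B_10 and 49 in G_3, so its values are limited by depth. PAS_chr2-1_0092 had 160.1, 192 and 548 FPKM before methanol alone, 176 in M_12 and 591 in M_24, and was again lower in M_120, at 332 FPKM. PAS_chr4_0988 had 176, 294 and 663 FPKM before methanol alone, 322 in M_12 and 776 in M_24. In these 3 genes M_12 was close to the phases before methanol, and the level of the mixed feed was reached or approached by 36 h.

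PAS_chr1-1_0289 and PAS_chr1-4_0612 spanned as wide a range in methanol, with opposite courses. PAS_chr1-1_0289 had 89.6, 112 and 343 FPKM before methanol alone, 238 in M_12, 666 in M_24 and 1056 in M_120. PAS_chr1-4_0612 had 29.8, 24.5 and 72.6 FPKM before methanol alone, 462 in M_12, 279 in M_24 and 141 in M_120. The first was lowest in the first methanol library and the second highest there, and their ranges were 2.14 and 2.11 on the log2 scale.

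Through the methanol median, the rule required at least 5 of the 10 methanol libraries to lie at least 1 above both earlier phases. The counts per library are shaped by this selection and are given as a description, and nothing is read from them. In 70 of the 98 genes each of the 10 methanol libraries lay at least 1 above both earlier phases. Libraries passed this level in 85 genes at M_12 and 84 at M_60, against 96 at M_48, and 89 passed at M_120. The 13 genes short at M_12 and the 14 short at M_60 were mostly different genes, as only 3 were short in both. PAS_chr4_0988 and PAS_chr3_1242 passed in the fewest libraries, 5 each, which is the fewest the rule allows. PAS_chr3_1242 had 365, 439 and 1300.3 FPKM before methanol alone, and 683 in M_12 to 1029.6 in M_60.

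The spread over the methanol libraries was set beside that of all tested genes as a description, with no test. The SD of log2(FPKM + 1) over the 10 libraries had a median of 0.23 (0.094 to 0.67), against 0.15 in the tested genes, and the range a median of 0.73 against 0.50. PAS_chr3_0422 was the steadiest, with 107 to 129.97 FPKM in methanol and 129.7 in GM_2. The lowest methanol library of a gene was M_60 in 31.6% of the set and 18.7% of the tested genes, M_24 in 20.4% of the set and 9.26% of the tested genes, and M_12 in 26.5% and 26.2%. The highest library was M_120 in 27.6% of the set and 19.9% of the tested genes, and M_96 in 12.2% and 6.74%. The widest gaps between the set and the tested genes were those at M_60 and M_24 as the lowest library.

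**Figure D3:**
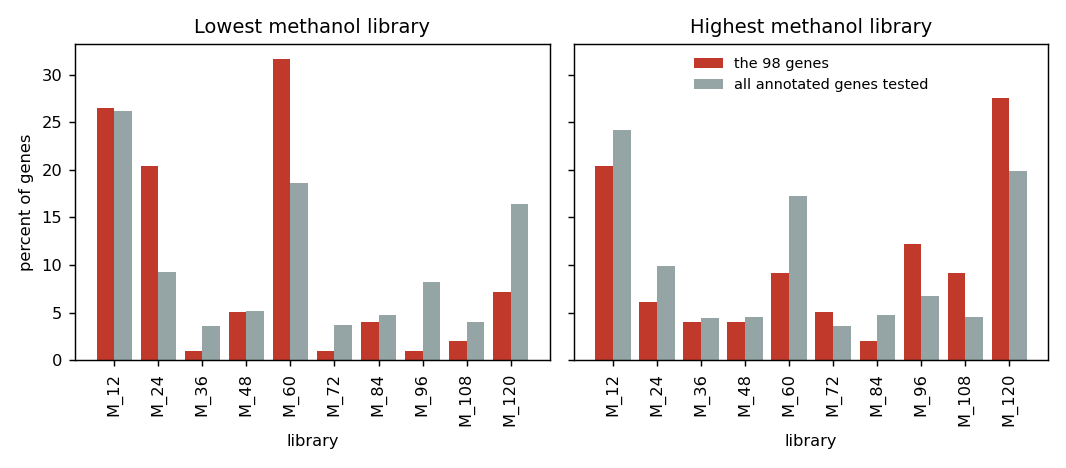
Percent of genes whose lowest (left panel) and highest (right panel) methanol library was each of M_12 to M_120, for the 98 genes (red) and all 5032 tested genes (grey). M_60 was lowest for 31.6% of the set against 18.7% of the tested genes.

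M_60 lay below the mean of M_48 and M_72 in 76 of the 98 genes (77.6%), against 51.2% of the tested genes. The median difference was -0.18 in the set and -0.01 in the tested genes. Libraries were also rescaled without the 20 genes of largest mean FPKM over the 13 libraries, 1 of which is in the set. After this, these medians were -0.25 and -0.07, and 81.6% of the set and 62.8% of the tested genes were below. PAS_chr4_0375 had 251 FPKM in M_48, 139 in M_60 and 178 in M_72, and M_60 was its only methanol library short of the threshold. PAS_chr3_0023 had 264 FPKM in M_48, 151 in M_60 and 242 in M_72. M_60 is 1 library, and a dip of the culture and a property of that library cannot be told apart.

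A linear trend over the 10 methanol libraries was the measure tested, since the median does not fix it. By limma over all 5100 identifiers with a mean of at least 1 FPKM and a Benjamini-Hochberg adjusted p of 0.05, 7 of the 98 genes were called higher and 3 lower with hours, against 4.88% and 2.8% of all tested. The p-values measure scatter around the line within 1 culture. The fit takes the serial samples as independent, which was not tested, and p-values would be too small if successive samples resemble each other. An unadjusted p under 0.05 was found for 32 of the 98 genes and for 1297 of the 5100. The median change between 12 and 120 h was 0.19 in the set and 0.01 over all tested, and it was above 0 in 73.5% of the set and 50.9% of all tested. The split depended on the scaling. With libraries rescaled without the same 20 genes, limma called 3 of the 98 genes higher and 5 lower. The median change was then 0.04 in the set and -0.15 over all tested, and 53.1% of the set and 30.2% of all tested were above 0. Rescaling moves all genes of a library nearly alike, so it leaves the gap between the set and all tested genes much as it was.

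PAS_chr2-1_0749, PAS_chr3_0018 and PAS_chr3_0712 were called in each of the 10 fits that left out 1 methanol library. PAS_chr2-1_0749 had 75.3, 81.2 and 211 FPKM in B_10, G_3 and GM_2, and 358 in M_24 to 596 in M_120 with a median of 459, and rose by 0.79 ± 0.11 (SE, n = 10 libraries) over the methanol hours (limma adjusted p = 0.00292). All libraries from M_72 on lay above all earlier ones. PAS_chr3_0018 had 1.54, 1.97 and 4.98 FPKM before methanol alone and 9.32 in M_12 to 20.8 in M_96 with a median of 17.3, and rose by 0.97 ± 0.17 (SE; limma adjusted p = 0.00821). Its libraries up to M_24 were under 11 FPKM and those from M_72 on between 18.5 and 20.8. PAS_chr3_0712 had 44.6, 42.5 and 96.6 FPKM before methanol alone, then 183 in M_12 and 99.8 in M_120 with a median of 116, and fell by 0.85 ± 0.10 (SE; limma adjusted p = 0.00238). By M_120 it was back near its GM_2 level.

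PAS_chr1-3_0152 rose by 0.87 ± 0.16 (SE; limma adjusted p = 0.0101), with 48.4, 59.6 and 131.4 FPKM before methanol alone and 191 in M_24 to 382 in M_120. PAS_chr4_0540 fell by 1.05 ± 0.22 (SE; limma adjusted p = 0.0211), with 362 FPKM in M_24 and 155 in M_84. Each kept its call in 9 of the 10 fits, and the exceptions were the fit without M_120 for the first (limma adjusted p = 0.0618) and without M_24 for the second (limma adjusted p = 0.0687). PAS_chr2-1_0128, with 74.2 FPKM in M_12 and 41.9 in M_120, fell by 0.74 ± 0.16 (SE; limma adjusted p = 0.0227) and kept its call in 7 fits. PAS_chr1-1_0037 rose by 0.51 ± 0.13 (SE; limma adjusted p = 0.0368), a small change beside its difference of 7.11 from the phases before methanol, and kept its call in 3 fits. PAS_chr1-1_0209, PAS_chr2-1_0364 and PAS_chr1-3_0059 rose by 0.77, 0.39 and 0.71 with limma adjusted p-values of 0.0454, 0.0468 and 0.0476, and kept their calls in 4, 2 and 2 fits. After rescaling these 3 genes and PAS_chr1-1_0037 lost their calls, with limma adjusted p-values of 0.0537, 0.220, 0.105 and 0.138 in that order, and the other 6 genes kept theirs. Without M_12, limma called 19 of the 98 genes higher and 6 lower. Without M_24, M_48, M_96 or M_120 it called 3 higher, and without M_72 or M_108 it called 4. The lower count was 1 without M_24.

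**Figure D4:**
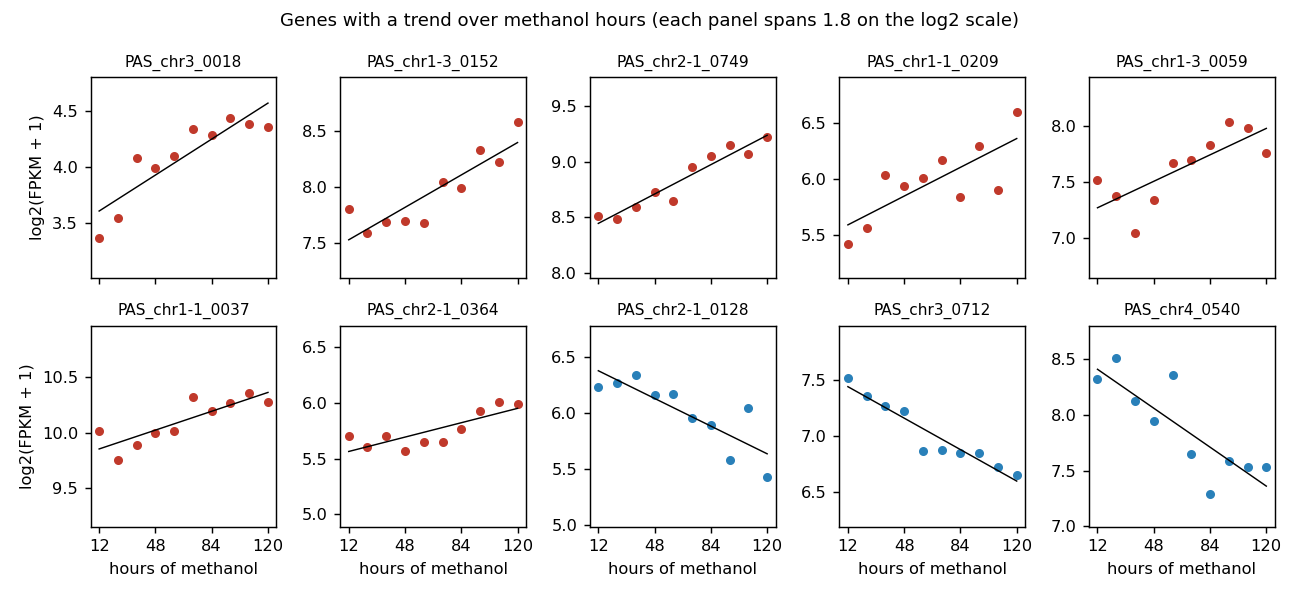
log2(FPKM + 1) against hours of methanol for the 10 genes called for a trend, 1 point per library with the fitted line, the 7 higher genes in red and the 3 lower genes in blue. PAS_chr2-1_0749 and PAS_chr3_0712 follow their lines closely, with changes of 0.79 and -0.85 between 12 and 120 h.

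Of the genes with a known part in methanol use, those of 2 lists in the study's tables were compared with the set, although the study picked these genes and they are no independent support. Of 13 methanol-use genes, 11 had the values that define the set and were left out of it only as table genes. Over all 13 the differences were larger, with list medians of 2.41 in GM_2 and 6.38 in methanol. The 98 genes, all selected for these values, had medians of 1.42 and 1.83. The 2 without these values were CAT, peroxisomal catalase, at 0.98 in GM_2, and FBPI at 0.27. FDH had 45.5, 134 and 13046 FPKM in B_10, G_3 and GM_2 and a methanol median of 20096, which lies 0.62 above GM_2 on the log2 scale. DAS1 had 17.4, 18.2 and 374 FPKM before methanol alone and a methanol median of 6451. Of 11 peroxins, the proteins that build peroxisomes and import their content, 4 had the defining values (PEX5, PEX6, PEX11 and PEX13), and the list medians were 0.70 in GM_2 and 2.31 in methanol. PEX11, which acts in peroxisome proliferation, had 111, 133.5 and 851 FPKM before methanol alone and a methanol median of 3386. For the trend over methanol hours limma called 1 of the 13 methanol-use genes higher, PMP20, a peroxisomal peroxiredoxin (0.74 ± 0.12, SE; limma adjusted p = 0.00577), and 0 of the 11 peroxins, where the smallest adjusted p was 0.0683 for PEX11.

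**Figure D5:**
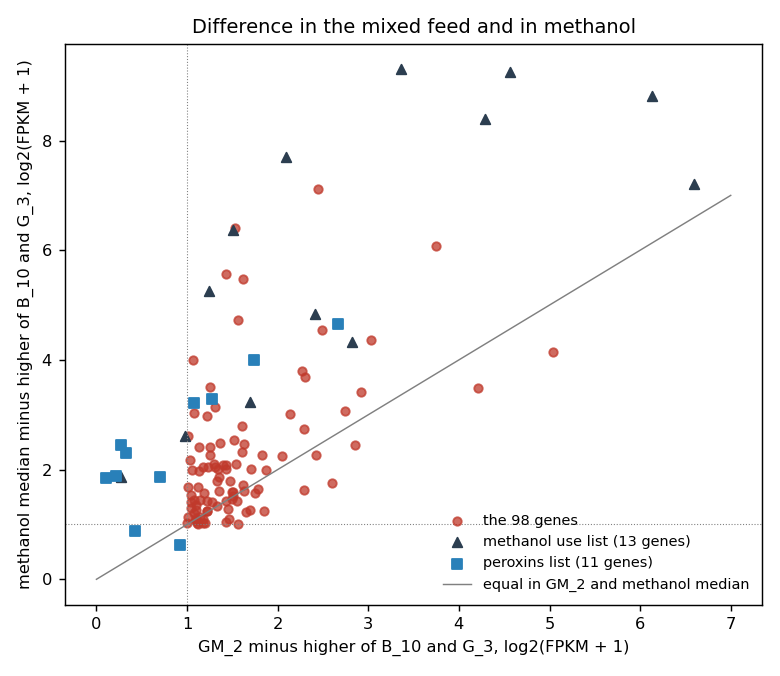
Difference from the higher of B_10 and G_3 in log2(FPKM + 1), in GM_2 (horizontal axis) and in the methanol median (vertical axis), for the 98 genes (circles), 13 methanol-use genes (triangles) and 11 peroxins (squares). Dotted lines mark the threshold of 1. Most circles crowd near it on the horizontal axis, while on the vertical axis PAS_chr1-1_0037 and PAS_chr3_1071 reach 7.11 and 6.40 among the triangles.

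Some of the 98 genes lay side by side. In the order of the RefSeq annotation of GS115 they formed 11 pairs of direct neighbours, taking in 22 of the 98 genes. Members of the set held 11.3% of the places next to a member, and they make up 1.95% of the tested genes. The 4 chromosomes held 26, 24, 24 and 24 of the genes, of 1534, 1329, 1198 and 971 tested, and the median gene length was 1228.5 bases, against 1199 in the tested genes. Pairs moved together over methanol to varying degrees, with a Pearson r of log2(FPKM + 1) over the 10 libraries between 0.24 and 0.90, a median of 0.64 and 8 pairs above 0.5. Over 5026 neighbouring pairs of tested genes the median was 0.15. All such pairs share libraries and scaling, and r is given as a description. It was not taken for members that are not neighbours, so whether place on the chromosome matters here was not tested.

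In several pairs 1 gene was far higher than the other. PAS_chr4_0589, at a methanol median of 5694 FPKM, stood next to PAS_chr4_0590, at 92.9, and their differences from the earlier phases were 4.54 and 1.09 (r = 0.70). PAS_chr3_0408 and PAS_chr3_0407 had methanol medians of 2549 and 114 FPKM (r = 0.44). PAS_chr1-1_0417 and PAS_chr1-1_0418 had 1826 and 441 FPKM (r = 0.24), and PAS_chr2-1_0748 and PAS_chr2-1_0749 had 1295 and 459 FPKM (r = 0.64). In all these pairs the gene with the higher level also had the larger difference from the phases before methanol. PAS_chr2-1_0365 and PAS_chr2-1_0364 had 593 and 51.1 FPKM (r = 0.63). The closest course was that of PAS_chr1-3_0249 and PAS_chr1-3_0250 (r = 0.90), whose annotated spans overlap, so reads of one may have been counted for the other.

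Of the 171 other tested genes next to a member, 15 (8.77%) lay at least 1 above both earlier phases in GM_2 and 27 (15.8%) did so in the methanol median, against 5.37% and 8.86% of all tested genes. Some members stood beside genes with a known part in methanol growth. Of the 128 identifiers in the study's tables, only DAS1, DAS2, Mit1 and PEX3 were among these 171 genes. How often tested genes in general lie beside such genes was not counted, and nothing is read from these places. PAS_chr3_0833 lies between DAS1 and DAS2, and had 18.8, 23.1 and 77.5 FPKM in B_10, G_3 and GM_2 and 81.5 to 105 in methanol, with a median of 95.5. Its methanol level was steady, with a range of 0.36, and far under the medians of 6451 and 8254 FPKM of DAS1 and DAS2. PAS_chr3_0837 lies next to Mit1, a transcription factor that activates the AOX1 promoter, which had 83.8, 164 and 3542 FPKM before methanol alone and a methanol median of 871. The Mit1 level was thus highest in the mixed feed, whereas PAS_chr3_0837 was 0.38 higher in the methanol median than in GM_2. PAS_chr3_1074 lies next to PEX3, a peroxin of membrane assembly, and had 43.1, 44.1 and 107 FPKM before methanol alone and 192 to 289.9 in methanol. PEX3 itself differed by 0.22 in GM_2 and 1.89 in methanol.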

How the data were processed

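RNA of 13 samples was sequenced. Per the submitters' processing notes and the study's methods, the authors aligned reads with HISAT2 2.0.5 and deposited FPKM values, scaled to library size and gene length. The build and the counter were not given in the sources used here. The file holds 5439 identifiers, of which 5040 are annotated genes, 47 numbered transcripts and 352 others. Members of the set and gene lists were chosen with earlier results of these data known.

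Values were taken as log2(FPKM + 1), with a mean of at least 1 FPKM, and a fold on this scale understates changes of low genes. The trend used limma 3.58.1 (R 4.3.3) with a linear term for hours, empirical Bayes with a mean trend, 8 residual degrees of freedom and Benjamini-Hochberg adjustment over 5100 identifiers. The code was tested on simulated data. Fragment numbers were recovered from FPKM and the lengths of RefSeq assembly ASM2700v1, whose table also gave gene order. FPKM was not treated as counts. Tables used Python 3.11.15, pandas 2.3.3 and matplotlib 3.10.9.

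Named genes were the 10 highest in methanol, the 10 with the largest GM_2 difference, all called for a trend, those at each threshold, neighbour pairs and examples of each course chosen after their values were seen. A planned naming by product and by peroxisomal targeting end was not used, as no products or proteins were at hand. Alternatives were other pseudocounts, filters, thresholds, references and scaling, a late against early contrast and leaving out each methanol library. An item of the study's gene tables is not reported here.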

Additional observations from a re-analysis of the deposited data

Results flagged for a closer look

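Outside the annotated genes, 7 other identifiers had the same course of values, 2 of them numbered transcripts that lie outside the gene annotation. The first of these had 1.19, 1.11 and 31.0 FPKM in B_10, G_3 and GM_2 and a median of 30.4 in methanol, a difference of 3.87 in GM_2 and 3.84 in the methanol median. The other had 15.7, 18.0 and 89.5 FPKM before methanol alone and a methanol median of 45.9. They drew attention as values outside the set described, and no further description of these identifiers was at hand.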

How the results depend on the processing

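The set held 98 genes as defined, 334 with a threshold of 0.5, 34 with 1.5 and 239 against B_10 alone. Under the other 17 settings, among them pseudocounts of 0.1 (104 genes) and 5 (75), rescaling without the 20 largest genes (120), G_3 alone (119) and every methanol library required (67), the count stayed within 1.5 times. Leaving out 1 methanol library gave 98 to 101 genes, 3 to 19 trend calls higher and 1 to 6 lower. Rescaled, limma called 3 higher and 5 lower, and M_72 to M_120 against M_12 to M_60 gave 3 higher and 1 lower. The cause of these shifts was not tested. None of the 10 genes called for a trend changed direction under any of these settings. Rescaling moved the median difference of all tested genes by 0.17 in methanol and 0.07 in GM_2. No paired analysis was possible because each condition has 1 library. Depth limits the 5 genes under 100 fragments.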
